A study of Arabidopsis thaliana with 9 samples.

Results

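HY5, HYH, FHL and PIL2 are 4 light signalling genes whose transcripts were compared array by array in Arabidopsis seedlings with and without a transgenic loss of phytochrome chromophore. They are defined by gene identity and were chosen with earlier results of these data known. HY5 is AT5G11260, HYH is AT3G17609, FHL is AT5G02200 and PIL2, also called PIF6, is AT3G62090. Each was represented by 1 probe set of the ATH1 array, so the 4 genes are 4 of the 22746 probe sets other than controls and 4 of the 15436 that passed a filter on low signal. HYH and FHL were named by the platform annotation. HY5 and PIL2 were named through a supplementary gene list of the study. Its genes were picked on these arrays, by an analysis of variance across the 3 lines and a change of 2-fold between both transgenic lines. For HY5 and PIL2, the test across the 3 lines and the contrast of CAB3::pBVR2 with 35S::pBVR3 are therefore not independent evidence. Their contrasts with No-0 WT use the same arrays and are not independent of that selection either.

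RNA of whole seedlings of 3 lines was hybridised to 9 arrays, with 3 arrays per line and 1 RNA extraction per array. No-0 WT is the wild type. 35S::pBVR3 carries a gene for a plastid-targeted biliverdin reductase (BVR), an enzyme that breaks down the phytochrome chromophore, under the constitutive 35S promoter, whose activity has been described as enriched in vascular tissue. CAB3::pBVR2 carries the same enzyme under the CAB3 promoter, which is active in mesophyll cells. All 3 lines shared the same handling: the seeds received 5 min of red light at 75 µmol m-2 s-1 and 3 days of dark at 4 °C, and the seedlings then spent 7 days in continuous far-red (FRc) light. Each transgenic construct was represented by 1 line, no line lacked phytochrome by mutation, and BVR itself was not measured here, so that line and construct cannot be told apart.

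Phytochromes are red and far-red light receptors that need a bilin chromophore, and phytochrome A is the one that acts in continuous far-red light. FHL and its homolog FHY1 bind light-activated phytochrome A and carry it into the nucleus. There the bZIP transcription factors HY5 and HYH promote seedling de-etiolation, and their proteins are degraded in darkness through the COP1 and SPA repressors. PIL2 belongs to the phytochrome interacting factor (PIF) family of bHLH proteins, of which several promote elongation in darkness, and it is known for a role in seed dormancy.

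The arrays gave MAS5 signals, a probe set brightness in arbitrary units, which were shifted so that every array had the same 75th percentile of 562.505. Arrays of 1 line correlated at 0.948 to 0.968 over the kept probe sets and arrays of different lines at 0.847 to 0.946. The highest of the 27 bacterial control probe sets, used as background, lay between 27.0 and 48.0 after the shift, which 97.6 to 99.3% of kept probe sets exceeded. All 4 genes exceeded it on all 9 arrays. The lowest value was that of PIL2 on No-0 WT replicate 1, at 1.33 times the background of that array. Contrasts were tested with limma on log2 signals of all 9 arrays, with Benjamini-Hochberg adjustment over the 15436 kept probe sets and a threshold of 0.05. The seedlings were assayed whole, so fewer cells of a type and less RNA per cell cannot be told apart in any value given here.

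In CAB3::pBVR2, the line with BVR in mesophyll, all 4 genes differed from No-0 WT: FHL, HY5 and PIL2 were 2.30 to 4.06-fold higher and HYH was 3.02-fold lower. For comparison, 36.9% of all kept probe sets passed this contrast, 16.7% higher and 20.2% lower. In 35S::pBVR3, FHL rose over No-0 WT and the other 3 genes did not pass, where 9.54% of all kept probe sets passed, 4.25% higher and 5.29% lower. In the direct contrast of both transgenic lines, HY5 was higher in CAB3::pBVR2 and the other 3 genes did not pass, where 8.43% of kept probe sets passed, 1.74% higher and 6.69% lower. The split of all calls by direction depended on the scaling of the arrays. With the signals as deposited, 393 probe sets were higher and 834 lower in place of 268 and 1033 for CAB3::pBVR2 against 35S::pBVR3. The numbers were 3545 and 2529 in place of 2585 and 3112 for CAB3::pBVR2 against No-0 WT, and 786 and 581 in place of 656 and 817 for 35S::pBVR3 against No-0 WT. The directions and calls of the 4 genes were the same on that scale. The share for 35S::pBVR3 against No-0 WT also rested on single arrays: its 1473 calls became 300 without No-0 WT replicate 2 (191 higher and 109 lower), 493 without No-0 WT replicate 1 and 845 without replicate 3, and 530, 651 and 439 without 35S::pBVR3 replicates 1, 2 and 3. The 1301 calls between the transgenic lines became 794 and 841 without 35S::pBVR3 replicates 1 and 3 and 829 without CAB3::pBVR2 replicate 1. The median log2 fold change of the 4 genes was 1.43 for CAB3::pBVR2 over No-0 WT, 0.77 for CAB3::pBVR2 over 35S::pBVR3 and 0.43 for 35S::pBVR3 over No-0 WT. Over all kept probe sets the same medians were 0.02, 0.03 and -0.03. HY5 and PIL2 entered through the study's list picked on these arrays, a selection that does not apply to all kept probe sets. Each pair of contrasts shares a group of 3 arrays, so the 3 sets of values are not independent of each other.

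**Figure D1:**
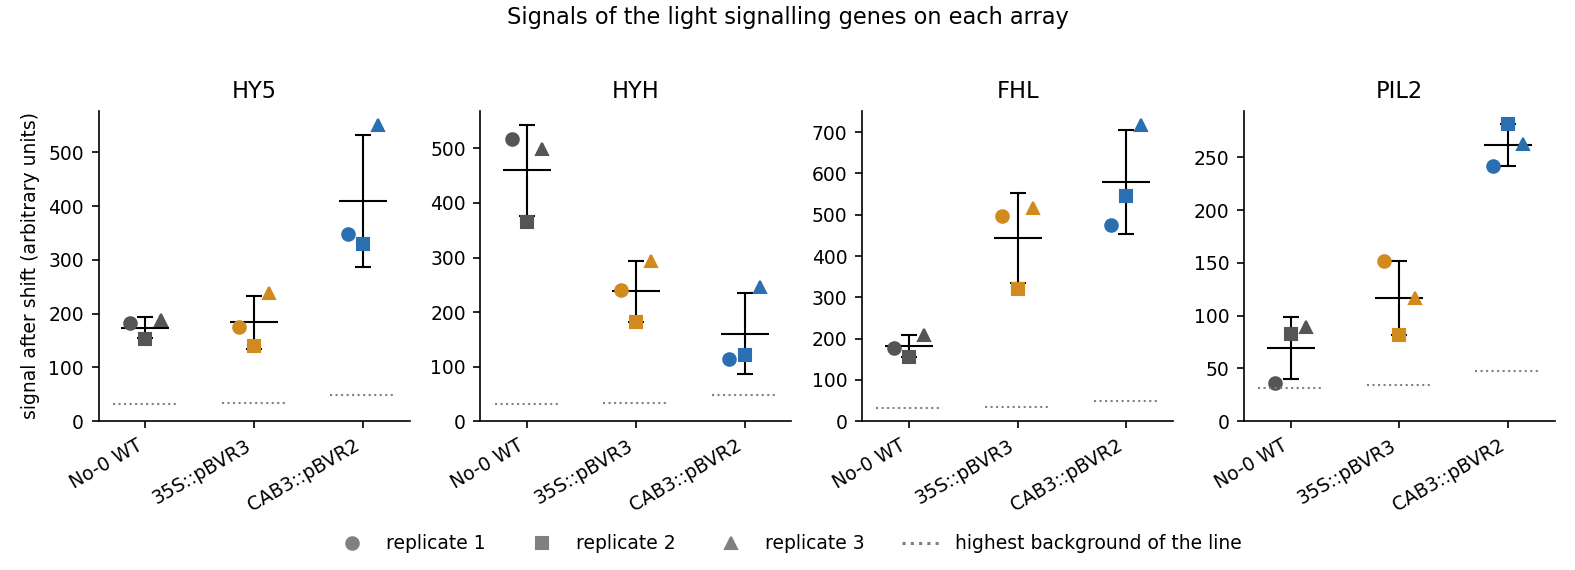
Signal after the shift (arbitrary units, linear axis from 0) of HY5, HYH, FHL and PIL2 in the 3 lines. Symbols are single arrays by replicate number, bars are mean ± SD (n = 3) and the dotted line is the highest background of each line. The 3 CAB3::pBVR2 arrays lie above all No-0 WT arrays for HY5, FHL and PIL2 and below them for HYH.

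FHL, an importer of phytochrome A beside FHY1, was higher than in No-0 WT in both transgenic lines. Its signal on replicates 1, 2 and 3 was 178, 157 and 210 in No-0 WT. In 35S::pBVR3 it was 497, 319 and 517, and in CAB3::pBVR2 it was 474, 546 and 718. Neither transgenic line overlapped No-0 WT, while both transgenic lines overlapped each other. Averaged over 3 arrays, with the SD, the wild type gave 182 ± 26.9, 35S::pBVR3 gave 445 ± 109 and CAB3::pBVR2 gave 580 ± 125. FHL rose 3.17-fold in CAB3::pBVR2 over No-0 WT (log2 fold change 1.66 ± 0.24, SE, adjusted p = 0.000692, limma). It rose 2.41-fold in 35S::pBVR3 (1.27 ± 0.24, adjusted p = 0.0171, limma). Of the kept probe sets, 3.42% rose more than FHL in CAB3::pBVR2 and 2.22% did so in 35S::pBVR3. Between the transgenic lines the log2 difference was 0.39, with a 95% confidence interval from -0.14 to 0.93, and it did not pass (adjusted p = 0.371, limma). The call for 35S::pBVR3 was lost without a filter on signal (adjusted p = 0.0564, limma) and when any of 4 single arrays was left out. Those were No-0 WT replicate 1 (0.0515) or replicate 2 (0.0651) and 35S::pBVR3 replicate 1 (0.0561) or replicate 3 (0.0570).

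HY5 was higher in CAB3::pBVR2 than in either other line. Its signal on replicates 1, 2 and 3 was 182, 153 and 188 in No-0 WT. It was 175, 140 and 238 in 35S::pBVR3, and 348, 329 and 552 in CAB3::pBVR2. The lowest CAB3::pBVR2 array exceeded the highest array of either other line, and the arrays of No-0 WT and 35S::pBVR3 overlapped. The mean signals, in the order No-0 WT, 35S::pBVR3, CAB3::pBVR2 used from here on, were 174 ± 19.2, 184 ± 49.7 and 410 ± 123 (SD, n = 3). Relative to No-0 WT, the log2 fold change in CAB3::pBVR2 was 1.20 ± 0.25 (SE, adjusted p = 0.00561, limma). Of the kept probe sets, 7.59% rose more. Relative to 35S::pBVR3 it was 1.15 ± 0.25, or 2.22-fold (adjusted p = 0.0242, limma), and 1.61% of kept probe sets had a larger rise. Between 35S::pBVR3 and No-0 WT the log2 difference was 0.05, with an interval from -0.52 to 0.62 (adjusted p = 0.927, limma). Its sign turned without No-0 WT replicate 2 or 35S::pBVR3 replicate 3. The call against 35S::pBVR3 was lost when 35S::pBVR3 replicate 1 (adjusted p = 0.0741), 35S::pBVR3 replicate 2 (0.0799) or CAB3::pBVR2 replicate 3 (0.0631) was left out of the limma fit. It was also lost without a filter (0.0753), with only both transgenic lines in the fit (0.0595) and in a plain test without moderation of the spread (0.0693).

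HYH, the closest homolog of HY5, was highest in No-0 WT. Its signal on replicates 1, 2 and 3 was 517, 364 and 499 in No-0 WT. In 35S::pBVR3 it was 239.9, 182 and 293, and in CAB3::pBVR2 it was 115, 121 and 246. All 6 transgenic arrays lay below the lowest No-0 WT array, and the transgenic lines overlapped through replicate 3 of CAB3::pBVR2. The mean signals were 460.2 ± 83.5, 238 ± 55.7 and 160.5 ± 73.8 (SD, n = 3). HYH fell in CAB3::pBVR2 by 1.59 ± 0.31 on the log2 scale relative to No-0 WT (SE, adjusted p = 0.00383, limma), and 4.70% of kept probe sets had a larger fall. In 35S::pBVR3 the log2 difference from No-0 WT was -0.96 ± 0.31, with an interval from -1.66 to -0.26, which did not pass (adjusted p = 0.0866, limma). It passed with the replicate number as a block (adjusted p = 0.0281), under a stricter filter (0.0465) and without CAB3::pBVR2 replicate 3 (0.0374). Between the transgenic lines the log2 difference was -0.64, with an interval from -1.34 to 0.07 (adjusted p = 0.268, limma). Within a replicate number HYH was lower in CAB3::pBVR2 in all 3 pairs, at 0.477, 0.667 and 0.838 times 35S::pBVR3, and the contrast did not pass with the replicate block either (adjusted p = 0.0979).

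PIL2 was low in No-0 WT and highest in CAB3::pBVR2. Its signal on replicates 1, 2 and 3 was 36.0, 82.8 and 89.7 in No-0 WT. In 35S::pBVR3 it was 152, 81.5 and 117, and in CAB3::pBVR2 it was 241, 281 and 263. All CAB3::pBVR2 arrays exceeded all arrays of the other lines, and 35S::pBVR3 overlapped No-0 WT through its replicate 2. The mean signals were 69.5 ± 29.2, 117 ± 35.1 and 262 ± 20.0 (SD, n = 3). PIL2 rose 4.06-fold in CAB3::pBVR2 over No-0 WT (2.02 ± 0.35 on the log2 scale, adjusted p = 0.00202, limma), and 1.85% of kept probe sets had a larger rise. Relative to 35S::pBVR3 the log2 difference was 1.21 ± 0.35, which did not pass (adjusted p = 0.0676, limma). It passed without No-0 WT replicate 1 (adjusted p = 0.0166), with only both transgenic lines in the fit (0.0332) and on the log2(signal + 16) scale (0.0371). The difference of 35S::pBVR3 from No-0 WT was 0.81, with an interval from 0.02 to 1.60 (adjusted p = 0.175, limma). PIL2 was too dim for the stricter filter and has no value under it.

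**Figure D2:**
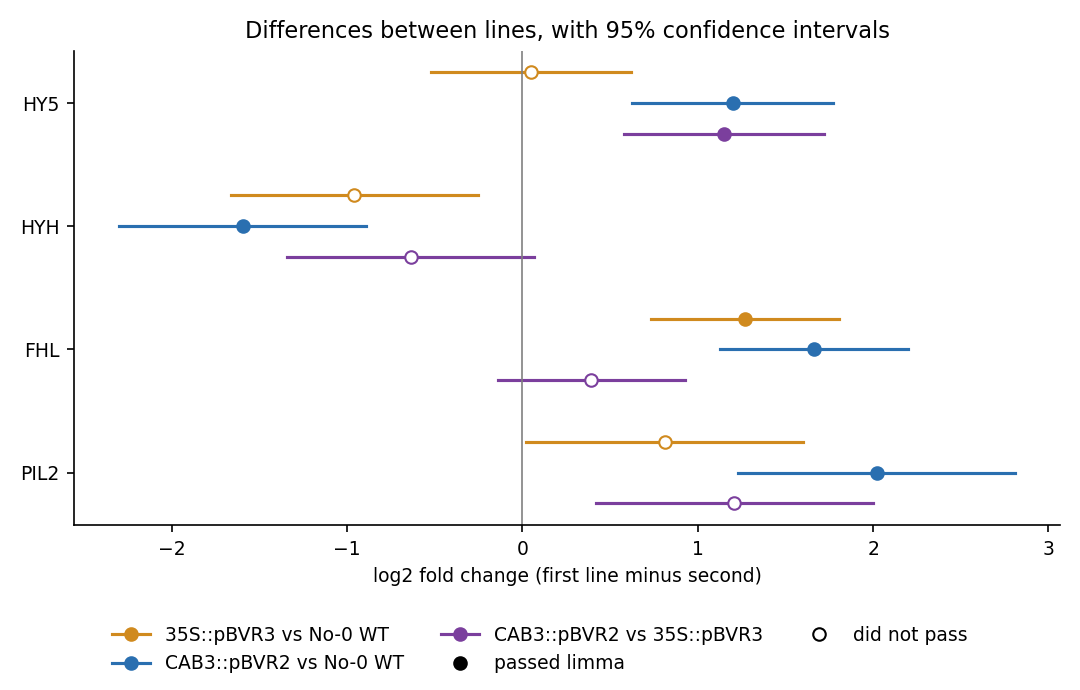
Log2 fold change (horizontal axis, first line minus second) with its 95% confidence interval for the 4 genes in the 3 contrasts between lines. Filled points passed limma at an adjusted p of 0.05 and open points did not. For CAB3::pBVR2 against No-0 WT all 4 points are filled, from -1.59 for HYH to 2.02 for PIL2.

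Across the 3 lines together, the moderated F-test of limma called all 4 genes, with adjusted p of 0.00188 for FHL, 0.00648 for PIL2, 0.00971 for HY5 and 0.0119 for HYH. The call of HYH was lost in the plain test without moderation (0.0505). The same test called 29.2% of all kept probe sets. HY5 and PIL2 were named through the study's list, picked on these arrays by a test across the same 3 lines. Their calls across the lines are therefore not independent evidence. The mean signals ran from No-0 WT over 35S::pBVR3 to CAB3::pBVR2 in ascending order for FHL, HY5 and PIL2 and in descending order for HYH. For HY5 the step from No-0 WT to 35S::pBVR3 was 0.05 on the log2 scale and turned its sign without single arrays. The share of kept probe sets with such orders was not computed. Of the 8 steps between neighbouring lines in these orders, 2 passed the test. These were No-0 WT to 35S::pBVR3 for FHL and 35S::pBVR3 to CAB3::pBVR2 for HY5. The 3 arrays of CAB3::pBVR2 did not overlap those of No-0 WT for all 4 genes, where 49.8% of kept probe sets did not overlap, 24.0% higher and 25.8% lower. For CAB3::pBVR2 against 35S::pBVR3 this held for HY5 and PIL2, where the share of kept probe sets was 27.4%, 11.5% higher and 15.9% lower. For 35S::pBVR3 against No-0 WT it held for HYH and FHL, where the share was 33.2%, 14.1% higher and 19.1% lower.

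Replicate numbers were shared by the lines, and arrays of the same number deviated together (the check stands with the processing steps). Taken within a replicate number, the ratio of HY5 in CAB3::pBVR2 to 35S::pBVR3 was 1.996, 2.36 and 2.32 for replicates 1, 2 and 3. This was a narrower range than the 1.38 to 3.95 over all 9 pairings of an array of each line. The ratio of HYH in 35S::pBVR3 to No-0 WT was 0.464, 0.499 and 0.588 within a number, against 0.352 to 0.805 over all 9 pairings. FHL in 35S::pBVR3 was 2.79, 2.04 and 2.46 times No-0 WT within a number. PIL2 differed from these: its ratio of 35S::pBVR3 to No-0 WT was 4.21, 0.985 and 1.302, with the high value in the replicate that holds the dimmest No-0 WT array.

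The 4 genes also differed in how single arrays departed from the mean of their line. For HY5, HYH and FHL, replicate 3 lay above the line mean and replicate 2 below it in all 3 lines. In CAB3::pBVR2 the replicate 3 array was 0.71 above the line mean for HYH, 0.47 for HY5 and 0.33 for FHL, on the log2 scale. For PIL2 the same array was 0.01 above its line mean, and the farthest array was No-0 WT replicate 1, at -0.84. Over the 9 arrays, the deviations from the line mean correlated at 0.95 between HY5 and HYH, 0.87 between HY5 and FHL and 0.86 between HYH and FHL. Those of PIL2 correlated at 0.10 with HY5, 0.01 with HYH and 0.41 with FHL. These correlations are descriptions over 9 arrays in which the genes share the same RNA and the arrays share 3 replicate numbers.

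**Figure D3:**
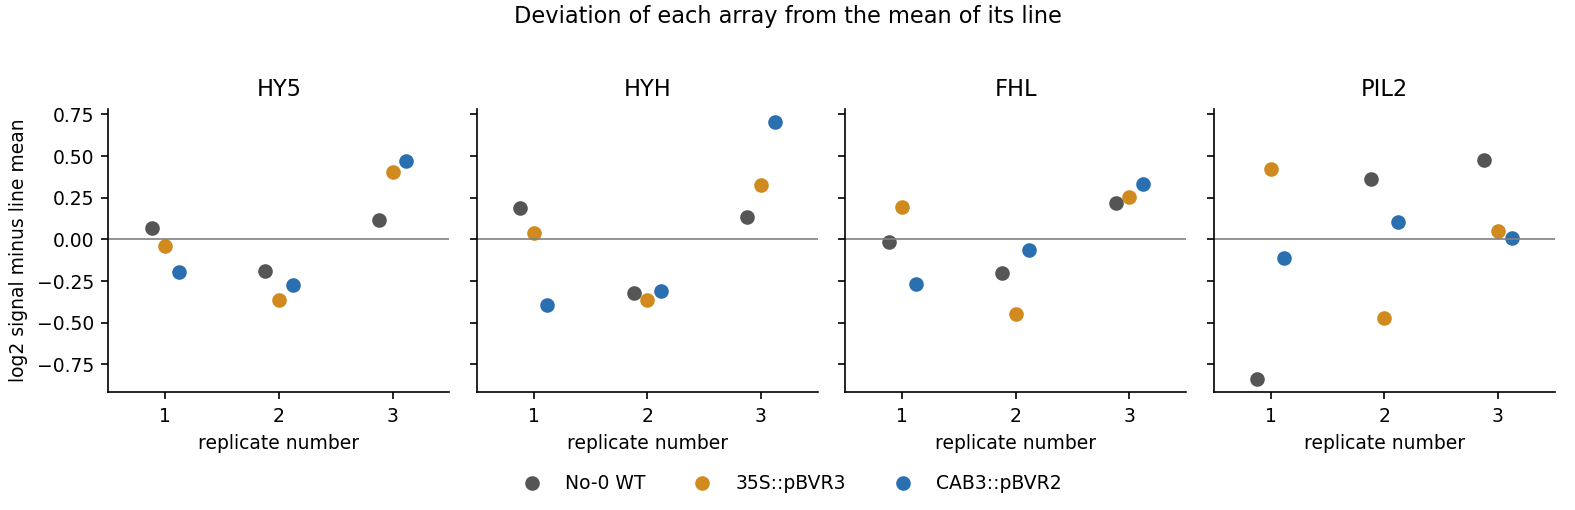
Log2 signal minus the mean of the line (vertical axis) by replicate number (horizontal axis), with 1 panel per gene and 1 colour per line. Replicate 3 lies above 0 and replicate 2 below 0 in every line for HY5, HYH and FHL, while the points of PIL2 do not follow the replicate number.

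In CAB3::pBVR2 against No-0 WT, HY5 rose and HYH fell. The ratio of HY5 to HYH on each array, which does not depend on how the array was scaled, was set against its mean in No-0 WT, so that no level of one probe set is compared with that of the other. On the log2 scale this change was -0.12, 0.13 and -0.02 on the No-0 WT arrays. It was 0.93, 1.01 and 1.09 on the 35S::pBVR3 arrays and 2.99, 2.83 and 2.56 on the CAB3::pBVR2 arrays. The means were 1.01 ± 0.08 in 35S::pBVR3 and 2.79 ± 0.22 in CAB3::pBVR2 (SD, n = 3), and the 3 lines did not overlap. This ratio was chosen after both genes' values were known and is given as a description, with no test.

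**Figure D4:**
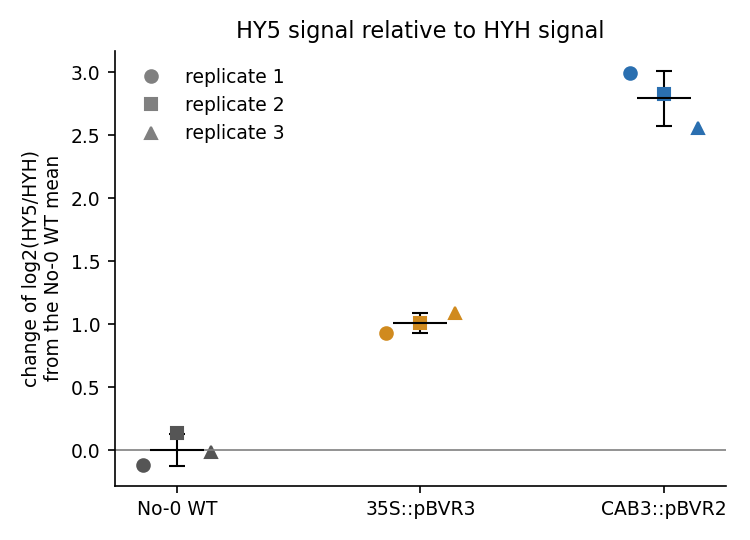
Change of the log2 ratio of HY5 to HYH signal from its No-0 WT mean (vertical axis) in the 3 lines. Symbols are single arrays by replicate number and bars are mean ± SD (n = 3). The 35S::pBVR3 arrays lie between 0.93 and 1.09 and the CAB3::pBVR2 arrays between 2.56 and 2.99.

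The genes whose log2 signal followed each of the 4 most closely over the 9 arrays were sought among the 8348 or 8349 other genes with a platform name, by Pearson correlation. HY5 was followed by AT4G22740 at 0.973, AT4G20880 at 0.969 and GPDHC1, a cytosolic glycerol-3-phosphate dehydrogenase, at 0.968. Their mean signals over the lines were 681, 664 and 822 for AT4G22740, 443, 460.2 and 949 for AT4G20880, and 571, 617 and 1049 for GPDHC1. Like HY5, they stood within 10% of each other in No-0 WT and 35S::pBVR3 and were highest in CAB3::pBVR2. HYH was followed by AT5G02830 at 0.977, AT2G30695 at 0.974 and AT1G62780 at 0.964. The mean signal of AT2G30695 went from 342 in No-0 WT to 156 and 80.0 in 35S::pBVR3 and CAB3::pBVR2.

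FHL was followed by AT1G27150 at 0.977, AT3G09490 at 0.970 and AT5G05110 at 0.969. The mean signal of AT5G05110 went from 866 in No-0 WT to 1507 and 1948 in 35S::pBVR3 and CAB3::pBVR2. PIL2 was followed by AT1G64370 at 0.972, AT1G34150 at 0.970 and OLEO3, an oleosin of oil bodies, at 0.970. The mean signal of OLEO3 was 52.8 ± 19.8, 134 ± 43.5 and 371 ± 75.1 (SD, n = 3). A correlation above 0.9 was reached by 46 genes for HY5, 132 for HYH, 184 for FHL and 87 for PIL2. All of these genes share the same RNA on each array, and nothing is read from the numbers about a common function.

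Few other genes of the pathway had a named probe set. Of 57 light signalling genes listed from general knowledge, 7 were measured under a name, the 4 genes above with SPT, PKS3 and GI. None of the 10 photoreceptors, the 8 COP, DET and SPA repressors, the 2 chromophore synthesis genes or the 2 BBX repressors on the list had a name here, and their transcripts were not analysed. Of the 7, 4 rose and 2 fell in CAB3::pBVR2 over No-0 WT, 2 rose in 35S::pBVR3 over No-0 WT, and 1 rose and 1 fell in CAB3::pBVR2 over 35S::pBVR3. These 7 include the 4 genes already counted above. HY5 and PIL2 were measured under a name only through the study's list of genes picked on these arrays. Such a selection does not apply to all kept probe sets, so the counts and medians of the 7 are not independent evidence. Over all kept probe sets the shares that passed were 36.9%, 9.54% and 8.43% in the same order. The median log2 fold change of the 7 was 1.20, 0.05 and 0.39, and that of all kept probe sets was 0.02, -0.03 and 0.03.

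SPT (SPATULA), a bHLH protein related to the PIFs that acts in germination and organ growth, changed in the same lines as FHL. Its signal on replicates 1, 2 and 3 was 179, 110.5 and 175 in No-0 WT, 451, 292 and 393 in 35S::pBVR3, and 581, 549.9 and 530.3 in CAB3::pBVR2. The 3 lines did not overlap. It rose by a log2 fold change of 1.87 ± 0.23 in CAB3::pBVR2 over No-0 WT (adjusted p = 0.000299, limma) and of 1.303 ± 0.23 in 35S::pBVR3 (adjusted p = 0.0152, limma). The latter was lost without 35S::pBVR3 replicate 3 (0.0505) and without a filter (0.0528). Between the transgenic lines the log2 difference of SPT was 0.57, which did not pass (adjusted p = 0.175, limma). The arrays of these lines did not overlap for 27.4% of kept probe sets.

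PKS3, of the phytochrome kinase substrate family, was lower in CAB3::pBVR2. Its signal was 504, 700.5 and 895 in No-0 WT, 359, 385 and 528 in 35S::pBVR3, and 147, 260.0 and 153 in CAB3::pBVR2. The log2 fold change was -1.92 ± 0.29 against No-0 WT (adjusted p = 0.000929, limma) and -1.22 ± 0.29 against 35S::pBVR3 (adjusted p = 0.0327, limma). The call against 35S::pBVR3 was lost in 8 of 18 alternative settings, among them leaving out No-0 WT replicate 2 (0.0543), any single 35S::pBVR3 array, the highest of which gave 0.104, and CAB3::pBVR2 replicate 1 (0.108) or 3 (0.0974). GI (GIGANTEA), a clock gene that also acts in phytochrome signalling, had mean signals of 1408 ± 204, 1226 ± 74.1 and 1223 ± 279 (SD, n = 3). It passed no contrast, with adjusted p of 0.408 to 0.955 in limma. IAA29, an auxin-response gene and the 1 measured of 6 known PIF targets listed, had signals of 284 ± 99.9, 519 ± 208 and 443 ± 58.2. Both transgenic lines lay above all No-0 WT arrays for IAA29, but no contrast passed (adjusted p of 0.126 to 0.817, limma).

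**Figure D5:**
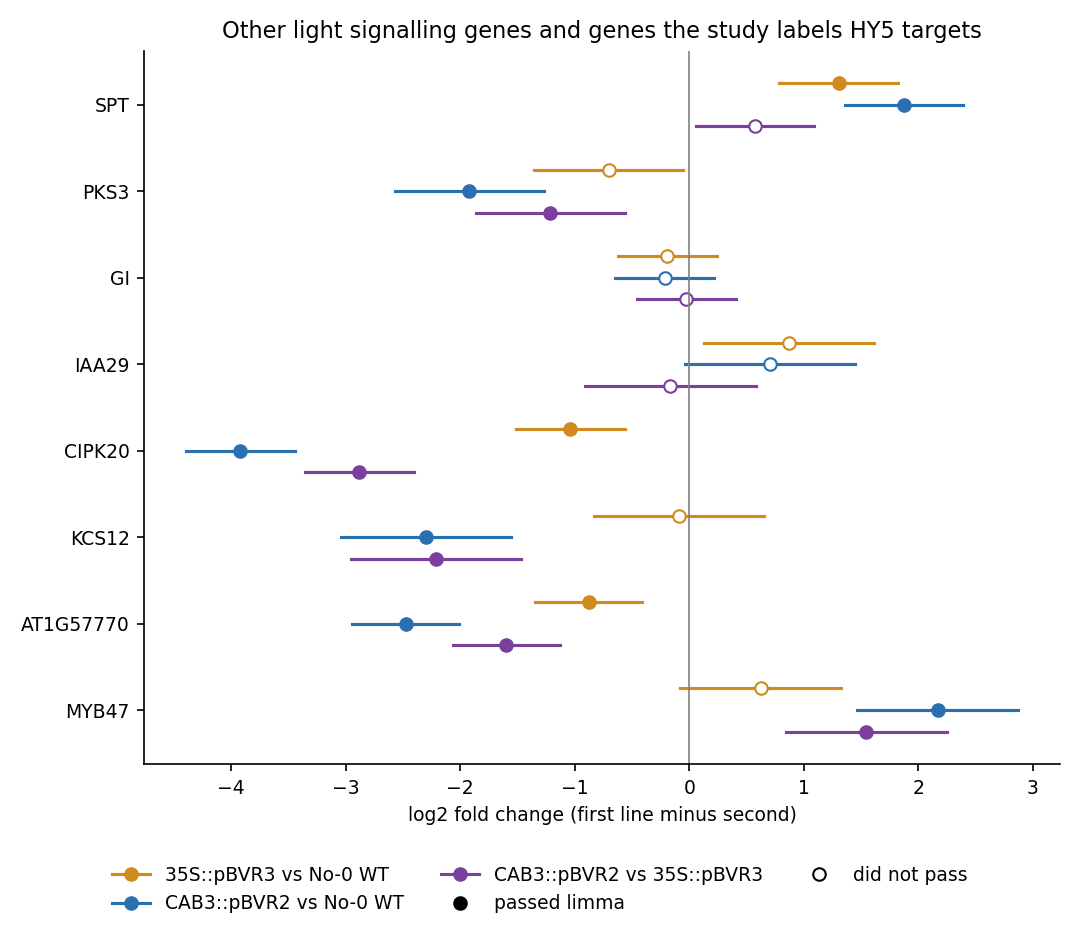
Log2 fold change (horizontal axis, first line minus second) with its 95% confidence interval for SPT, PKS3, GI, IAA29 and 4 of the 5 genes labelled as HY5 targets by the study, without AT1G56660. Filled points passed limma at an adjusted p of 0.05 and open points did not. SPT lies at 1.87 and CIPK20 at -3.92 for CAB3::pBVR2 against No-0 WT, and GI lies near 0 in all contrasts.

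None of 11 commonly known HY5 targets, such as the flavonoid genes, had a named probe set. The study labelled 5 other genes as HY5 targets, and these were picked on the present arrays for a change of 2-fold between both transgenic lines, so their counts and directions are not independent evidence. In CAB3::pBVR2 over No-0 WT, where HY5 rose and 36.9% of all kept probe sets passed (16.7% higher and 20.2% lower), 1 of the 5 rose and 3 fell, leaving out AT1G56660, which was near background. CIPK20, a calcium sensor-interacting protein kinase, had mean signals of 1295, 632 and 87.5. It fell by 3.92 ± 0.21 on the log2 scale in CAB3::pBVR2 over No-0 WT (adjusted p = 1.19e-05, limma) and by 1.04 ± 0.21 in 35S::pBVR3 (adjusted p = 0.0214, limma). The latter call was lost without any 1 of the No-0 WT or 35S::pBVR3 arrays, with an adjusted p of up to 0.0774. The HY5 transcript had a log2 difference of 0.05 in that contrast, and any part of HY5 in the fall of CIPK20 was not tested.

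KCS12, a ketoacyl-CoA synthase of fatty acid elongation, had mean signals of 796, 746 and 177. Its difference between 35S::pBVR3 and No-0 WT was -0.09 (adjusted p = 0.895, limma), beside the fall by 2.30 ± 0.33 in CAB3::pBVR2 over No-0 WT (adjusted p = 0.000698, limma). AT1G57770, which the study labels an amine oxidase, had mean signals of 517, 279 and 92.5 in the 3 lines. It fell against No-0 WT by 2.48 ± 0.21 in CAB3::pBVR2 (adjusted p = 4.38e-05, limma) and by 0.88 ± 0.21 in 35S::pBVR3 (adjusted p = 0.033, limma). The latter call was lost in 7 of 18 settings, without No-0 WT replicate 1 (0.0964) or 2 (0.106) and without any 1 of the 35S::pBVR3 arrays (0.0619 to 0.0896) among them.

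MYB47, a MYB transcription factor, rose with HY5. Its mean signals were 178, 260.0 and 760, and the log2 difference was 2.17 ± 0.31 in CAB3::pBVR2 over No-0 WT (adjusted p = 0.000726, limma). Its rise over 35S::pBVR3 of 1.54 ± 0.31 (adjusted p = 0.0163, limma) was lost without 35S::pBVR3 replicate 2 (0.0598), CAB3::pBVR2 replicate 2 (0.0551) or CAB3::pBVR2 replicate 3 (0.0515), and also without a filter (0.0572) and in the plain test (0.0613). AT1G56660 lay at 13.0, 13.4 and 21.3 in No-0 WT, not above background on any array, at 28.6, 31.0 and 63.9 in 35S::pBVR3, and at 76.9, 69.4 and 112 in CAB3::pBVR2. It passed the filter on low signal through CAB3::pBVR2 replicate 3 alone, the group where it is high, so no fold and no call are given for it.

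Some markers of cell types were lower in CAB3::pBVR2. Leaving out EXPA7, which was near background, no marker passed between 35S::pBVR3 and No-0 WT (adjusted p of 0.0774 to 0.694, limma). FAMA passed this contrast in 3 and CA1 in 1 of the alternative settings. Of 5 mesophyll markers listed, RCA (Rubisco activase) and CA1 (a chloroplast carbonic anhydrase) were measured. Their summed signal was 37212 to 39804 in No-0 WT, 22271 to 34053 in 35S::pBVR3 and 8557 to 10727 in CAB3::pBVR2. Both fell in CAB3::pBVR2 against either other line in limma, the fall of RCA against 35S::pBVR3 (adjusted p = 0.0156) being lost without CAB3::pBVR2 replicate 3 (0.0549) and without a filter (0.0511). Of 2 guard cell lineage markers, FAMA and TMM, the summed signal was 498 to 591, 315 to 398 and 139 to 233 in the 3 lines. Both fell in CAB3::pBVR2 against No-0 WT (adjusted p = 0.00386 for FAMA and 0.00187 for TMM, limma). CA1 and TMM were named through the study's list, whose genes were picked on these arrays for a change between both transgenic lines. Their falls, and the sums that hold them, are therefore not independent evidence. The 1 root marker measured of 4 listed, the root hair expansin EXPA7, lay at 17.0 to 52.0, 27.3 to 68.6 and 30.8 to 91.6. It was not above background on No-0 WT replicate 2 and 35S::pBVR3 replicate 3. EXPA7 passed the filter on low signal through CAB3::pBVR2 replicate 2 alone, in the line where its mean was highest, so no call is given. The phloem and epidermis markers listed had no named probe set. By its means, the summed mesophyll signal of CA1 and RCA had the same order of lines as HYH and the opposite order to FHL, HY5 and PIL2. The share of kept probe sets with either order was not computed. The study lists CA1 among misregulated energy-related genes, so fewer mesophyll cells and less CA1 RNA per cell cannot be told apart. Between No-0 WT and 35S::pBVR3, FHL rose (log2 fold change 1.27, adjusted p = 0.0171, limma) and HY5 had a log2 difference of 0.05. HYH, PIL2, CA1 and RCA did not pass. The 35S::pBVR3 arrays of HYH, CA1 and RCA all lay below those of No-0 WT, as did 19.1% of kept probe sets. The part of the mesophyll signal in the differences of the 4 genes was not tested.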

How the data were processed

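RNA of 9 whole-seedling samples was hybridised to Affymetrix ATH1 arrays. The authors deposited linear MAS5 intensity values. The version of MAS5 was not found in the labels or methods read here. A trimmed mean leaving out 2% at each end was close to 500 on every array. Detection calls and the authors' later GeneSpring steps were not used here. The table held 22810 probe sets, of which 64 were controls. A signal of 0, which occurred 3 times, was replaced by the smallest positive signal, 0.1. Intensities were log2 transformed and shifted to a common 75th percentile, as in the methods. Kept were 15436 probe sets at or above the 40th percentile of at least 1 of 9 arrays, in place of a filter on detection flags. Lines were compared with limma 3.58.1 in R 4.3.3, in 1 fit over all 9 arrays (prior degrees of freedom 3.23). The same code was tested on simulated data.

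Depth does not apply to arrays, and 3 arrays per line limit the precision. As each array had its own RNA extraction, p-values measure the spread between extractions. Of the 22746 probe sets, 13513 had 1 gene in the platform annotation (13508 matched a RefSeq gene), 503 had several and 8730 had none. The study's supplementary list named 346 more.

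The lines share replicate numbers 1 to 3. Deviations from line means correlated at 0.207 to 0.391 in the 9 pairs of the same number and at -0.263 to -0.051 in the 18 other pairs, so the numbers were taken to pair the arrays. What the number stands for is not stated in the labels or methods. The main fit had no block, as in the methods.

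Named were the 4 genes, listed pathway and marker genes, and the 3 platform-named genes most correlated with each of the 4. The 4 genes, lists and rules were chosen with earlier results of these data known. Alternatives were no filter, a stricter filter (60th percentile on 3 arrays), the signals as deposited, a shift to the median, quantile normalization, log2(signal + 16), a replicate block, only 2 lines in the fit, a plain test without moderation, and leaving out each array.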

Additional observations from a re-analysis of the deposited data

How the results depend on the processing

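The 4 differences between CAB3::pBVR2 and No-0 WT kept their direction and passed in every alternative run, PIL2 having no value under the stricter filter. Of 280 values of the 4 genes over all alternatives, 260 kept their direction and their side of the threshold. With adjusted p from limma, HY5 in CAB3::pBVR2 against 35S::pBVR3 no longer passed without a filter (0.0753), with only 2 lines in the fit (0.0595) and in the plain test (0.0693), and ranged from 0.0221 to 0.0799 with 1 array left out. HY5 in 35S::pBVR3 against No-0 WT turned its sign without No-0 WT replicate 2 (0.952) and without 35S::pBVR3 replicate 3 (0.768), in a range from 0.652 to 0.952. HYH in 35S::pBVR3 against No-0 WT passed under the stricter filter (0.0465) and with the replicate block (0.0281), and ranged from 0.0374 to 0.212 with 1 array left out. HYH across the 3 lines gave 0.0505 in the plain test. FHL in 35S::pBVR3 against No-0 WT gave 0.0564 without a filter and 0.0208 to 0.0651 with 1 array left out. PIL2 in CAB3::pBVR2 against 35S::pBVR3 passed on the log2(signal + 16) scale (0.0371) and with only 2 lines in the fit (0.0332), and ranged from 0.0166 to 0.191 with 1 array left out. The replicate block changed no other call of the 4 genes. It raised the count of called probe sets from 1301 to 2016 for CAB3::pBVR2 against 35S::pBVR3 and from 1473 to 2490 for 35S::pBVR3 against No-0 WT. Without a filter these counts were 695 and 293, and with 1 array left out 794 to 1155 and 300 to 1324. The lowest counts came without 35S::pBVR3 replicate 1 and without No-0 WT replicate 2. With signals as deposited, the median log2 fold change of all kept probe sets was 0.171 in place of 0.02 for CAB3::pBVR2 over No-0 WT and 0.115 in place of 0.03 over 35S::pBVR3. Of the 7 light signalling genes, 2 passed for CAB3::pBVR2 against 35S::pBVR3, 0 without a filter and 0 in the plain test (4 and 3 at an unadjusted p under 0.05), and 0 to 3 with 1 array left out. For 35S::pBVR3 against No-0 WT, 2 passed, 0 without a filter (3 at an unadjusted p under 0.05) and 0 to 3 with 1 array left out. GI, which passed no contrast, turned its sign between the transgenic lines in 5 of 18 settings. Among them were the signals as deposited (0.875) and quantile normalization (0.929). Over all fits with 1 array left out, the adjusted p of GI in limma ranged from 0.548 to 0.974. IAA29 turned its sign between the transgenic lines in 1 of 18 settings, and its adjusted p in limma ranged from 0.681 to 0.933 with 1 array left out. The cause of these changes was not tested. PIL2 lay nearest to background in No-0 WT, where its differences are least precise.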
